A study of Ovis aries with 41 samples.

Results

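Skin from the tip of the tail was compared with skin from the middle of the tail in the 3 rams that are homozygous D/D at HOXB13, the long-tail genotype. All rams were adult and of the Improved Jezersko–Solčava breed, and their skin was taken after death. The comparison used the D/D libraries labelled tail tip and tail mid, which are 11 of the 41 RNA-seq libraries of the series. Libraries of the same ram and position were summed, so that 6 of 21 ram sums and 3 of 7 rams entered the comparison, with each ram as its own control. Rams 871787 and 871868 gave a pair of libraries at both positions, whereas ram 871869 gave 1 mid-tail library and 2 tip libraries. The labels do not say whether the libraries of a pair came from separate biopsies. The D/D tail base (6 libraries) and the tip and mid-tail skin of the 4 A/A rams, which carry the short-tail genotype, were used to place the D/D values. All 21 ram sums, those of the A/A base included, also entered the fit. They share the estimate of spread behind every D/D standard error and p.

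HOX genes encode homeodomain transcription factors that are switched on in the embryo in an order along the body axis, the anterior genes of a cluster first and the posterior genes last. HOXB13 is the last gene of its cluster and is expressed in the growing tail bud. Skin fibroblasts of adult animals keep part of the HOX code of the place where they arose, which is why tail skin can be read for position. Whole skin also holds epidermis, wool follicles, sebaceous and sweat glands, fat, vessels, nerves and immune cells, and in such bulk samples fewer cells of a type and less RNA per cell cannot be told apart.

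The 5 mid-tail libraries held 9792057 to 20690466 counts and the 6 tip libraries 10620029 to 18581064, within the range of all libraries (9177395 to 23431409). As sums, mid-tail skin ranged from 17132063 counts in ram 871869 to 33605930, and tip skin from 25019844 to 35949658. Levels are given in CPM, a gene's count scaled to the TMM-normalised total of its ram sum, always in the order of rams 871787, 871868 and 871869. Log2 fold changes are tip minus mid-tail, with the standard error of the edgeR quasi-likelihood fit. Levels are not comparable between genes, since they were not divided by transcript length. An adjusted p is that of edgeR over all 19444 genes unless DESeq2 is named, and members of lists are also counted at an unadjusted edgeR p under 0.05. Beside each such count stand 2.88% of all genes lower and 0.802% higher at that level.

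No gene passed the test in edgeR. Of 19444 genes tested, 0 had an adjusted p under 0.05 (0%), and the smallest adjusted p was 0.210. At an unadjusted p under 0.05, 560 genes were lower at the tip (2.88% of those tested) and 156 were higher (0.802%), together 716, where 5% of the tests would be 972. DESeq2 on the same sums and design called 12 genes (0.0617%), 11 lower and 1 higher at the tip, of which 5 also passed the thresholds of the study (adjusted p at most 0.01, log2 fold change beyond 1 in either direction). The direction was the same in all 3 rams for 3069 genes lower at the tip (15.8%) and 3169 higher (16.3%). Tip and mid-tail rams did not overlap for 989 genes that were lower at the tip (5.09%) and 1033 that were higher (5.31%). The median log2 fold change over all genes was 0.01. With 3 pairs of values an exact permutation test of a single gene cannot go below a two-sided p of 0.25, so none was run.

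**Figure D1:**
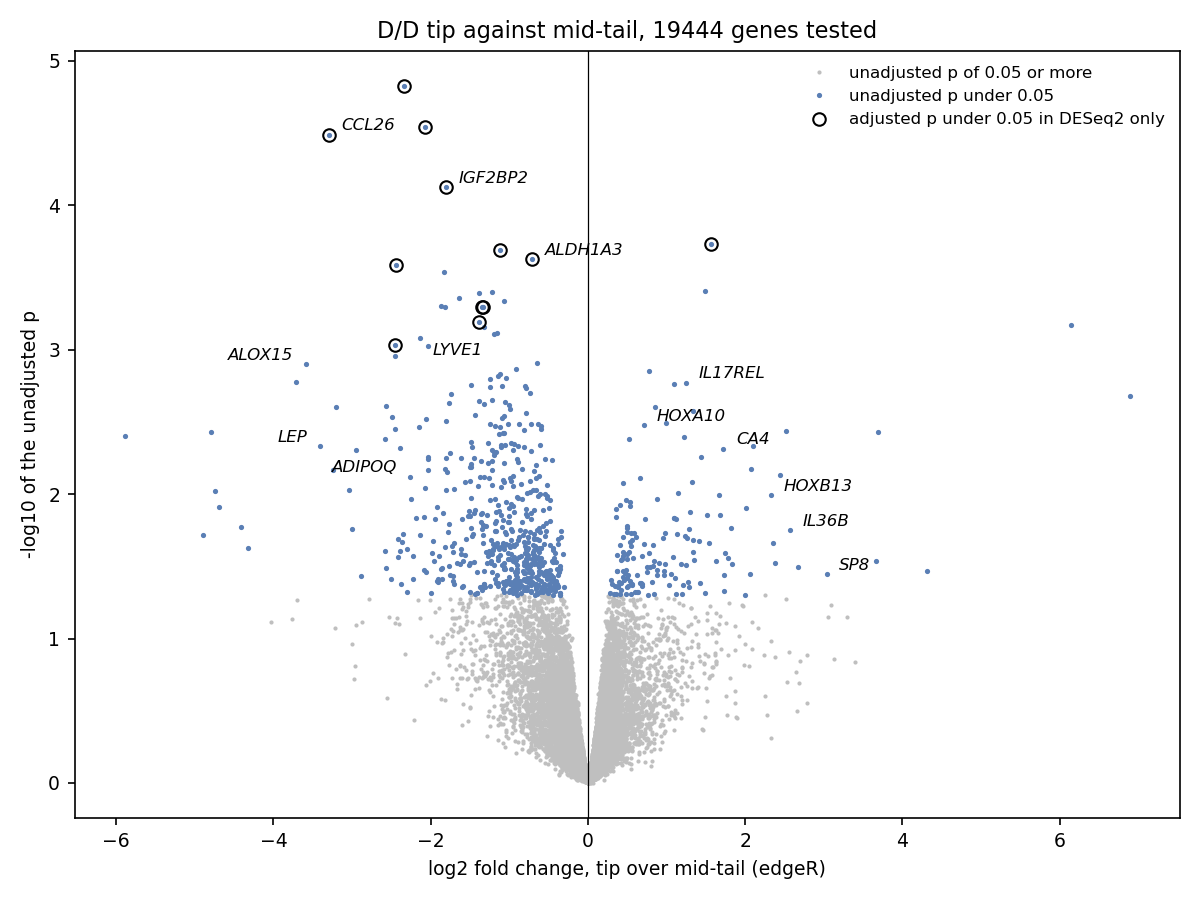
Log2 fold change of tip against mid-tail skin in D/D rams (x axis) and −log10 of the unadjusted edgeR p (y axis) for the 19444 genes tested, 1 point per gene. Circles mark the 12 genes that DESeq2 called, of which 11 lie on the left, lower at the tip, and 1 on the right.

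HOXB13 (chr11:37525009-37530787 of ARS-UI_Ramb_v3.0) was read first, since its genotype defines the rams. It measured 0.0939, 0.152 and 0.0572 CPM in mid-tail skin and 1.06, 0.474 and 0.257 CPM at the tip, which rest on 2, 5 and 1 counts against 25, 17 and 7. All 3 tips lay above all 3 mid-tails, and at the base the same rams had 0, 0 and 0.0309 CPM. The log2 fold change was 2.33 ± 0.80 (SE, n = 3 rams), which passed an unadjusted p under 0.05 but not the correction over all genes (edgeR adjusted p = 1). Single libraries overlapped: the mid-tail libraries ranged from 0 to 0.242 CPM with 2 of 5 at 0, and the tip libraries from 0.179 to 1.13. In A/A rams the change was 1.72 ± 0.46 (SE, n = 4 rams), and the difference between the genotypes was 0.61 ± 0.92 (edgeR adjusted p = 1).

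Of the posterior HOX genes (paralog groups 9 to 13), 14 of 16 passed the filter on low counts and HOXD12 and HOXD13 did not. At an unadjusted p under 0.05, 2 were higher and 0 lower, and the median log2 fold change was 0.18. In all 3 rams 4 were higher and 2 lower (28.6% and 14.3%, beside 16.3% and 15.8% of all genes). By ram the medians, on the scale of log2(CPM + 0.5), were 0.01, 0.30 and −0.01, so ram 871868 stood above the others. The second gene besides HOXB13 was HOXA10 (chr4:70442953-70452265), a posterior gene of the HOXA cluster. It measured 8.45, 9.22 and 7.03 CPM in mid-tail skin and 13, 16.9 and 11 CPM at the tip, without overlap between the ram sums. Its log2 fold change was 0.71 ± 0.21 (adjusted p = 0.889). HOXA13, the most posterior gene of that cluster, measured 4.37, 4.55 and 4.12 CPM against 4.24, 7.72 and 3.46 CPM. Only ram 871868 was higher at the tip for HOXA13, and without this ram the sign of the fitted change turned (log2 fold change 0.19 with all rams and −0.14 without it).

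The HOX genes of central position that stood apart belonged to the HOXC cluster and were lower at the tip. Of 20 anterior and central HOX genes tested, 3 were lower and 0 higher at an unadjusted p under 0.05, and the median was −0.06. HOXC5 (chr3:132460167-132482357) measured 9.25, 7.70 and 9.61 CPM in mid-tail skin and 5.35, 5.96 and 4.71 CPM at the tip, a log2 fold change of −0.74 ± 0.20 (adjusted p = 0.871). HOXC8 measured 20.3, 19.4 and 22.8 CPM against 15.7, 16.5 and 13.3 CPM (−0.46 ± 0.14, adjusted p = 0.942). For both genes every tip lay below every mid-tail. HOXC6 was also lower in each ram (−0.43 ± 0.20, adjusted p = 1), but the mid-tail of ram 871868, at 11.2 CPM, lay below the tip of ram 871787, at 11.8 CPM. Among the posterior HOXC genes the log2 fold change was −0.21 for HOXC9, 0.05 for HOXC10, 0.18 for HOXC11 and −0.05 for HOXC13. HOXC12 was lower in all 3 rams, at 1.64, 1.12 and 1.49 CPM in mid-tail skin and 1.4, 0.975 and 0.698 CPM at the tip, with a log2 fold change of −0.48 ± 0.48 (adjusted p = 1) and overlap between the rams of the positions.

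**Figure D2:**
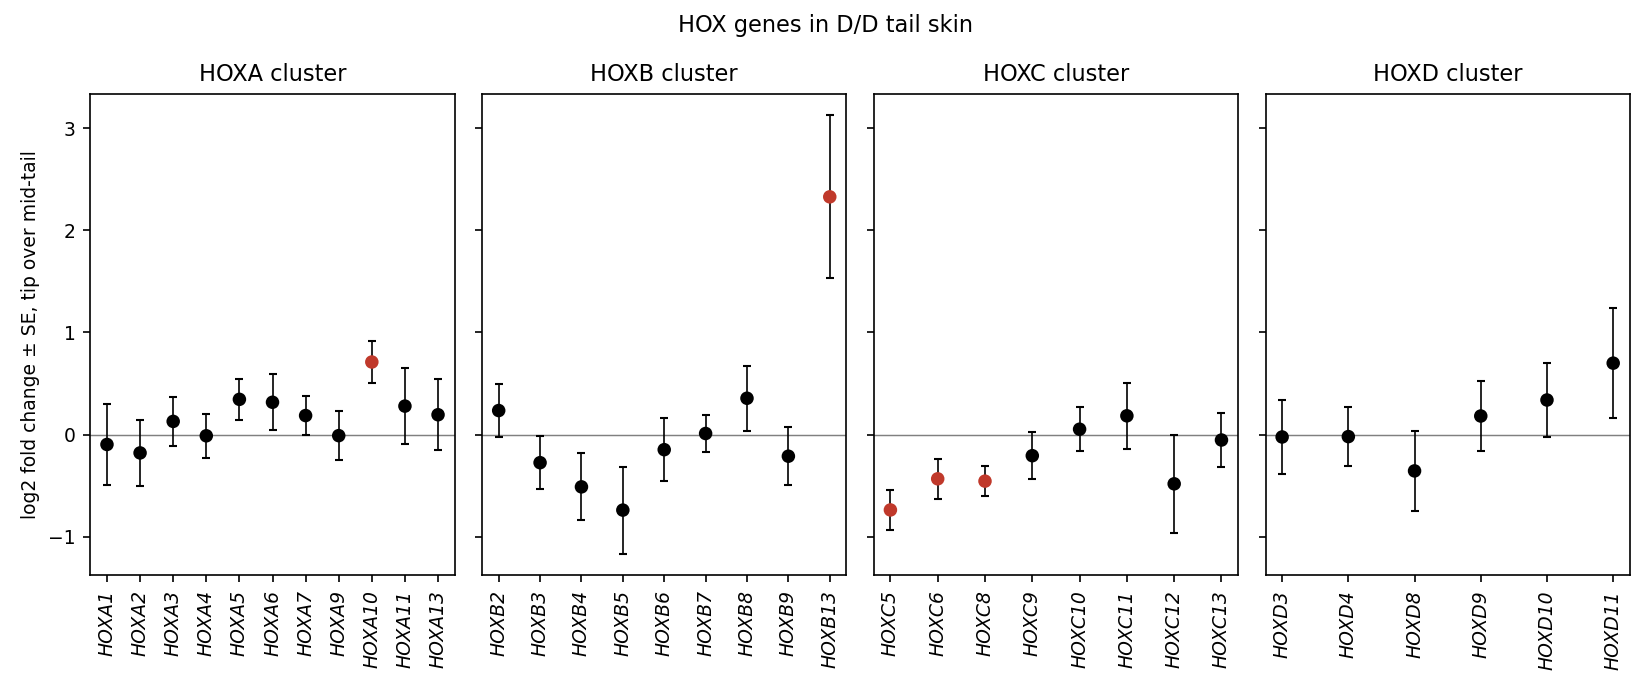
Log2 fold change of tip against mid-tail skin in D/D rams (y axis, error bars are the SE of the edgeR fit) for each HOX gene tested, ordered within its cluster from anterior to posterior (x axis). Red marks an unadjusted p under 0.05, which HOXA10 and HOXB13 have above 0 and HOXC5, HOXC6 and HOXC8 below 0.

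The transcription factors of limb and appendage development did not lean one way as a list: of 44 tested, 2 were lower and 1 higher at an unadjusted p under 0.05, and the median was 0.06. The 3 genes were SP9, HAND2 and SP8. SP8 (chr4:30451793-30456308) and SP9 (chr2:135679696-135683249) are zinc finger factors of the ridge of ectoderm that drives limb outgrowth, and they went in opposite directions. SP9 measured 1.27, 0.728 and 0.858 CPM in mid-tail skin and 0.297, 0.307 and 0.147 CPM at the tip, a log2 fold change of −1.87 ± 0.43 (adjusted p = 0.549). SP8 was listed at 0.141, 0 and 0 CPM in mid-tail skin and 0.297, 0.446 and 0.331 CPM at the tip. The zeros allow up to 0.0893 CPM in ram 871868 and 0.175 CPM in ram 871869 (3 counts, counting error only). Over the 3 rams SP8 had 3 counts in mid-tail skin and 32 at the tip, a ratio of 8.49 per total count with a 95% counting interval of 2.66 to 43.3. This interval pools the rams and leaves out the spread between animals, so it is not a test of the change. In edgeR the log2 fold change of SP8 was 3.04, which did not pass the correction over all genes. For SP8 and SP9 no single tip library overlapped a mid-tail library in CPM. For SP8 this rests on library totals. In ram 871787, mid-tail library 1 and tip library 2 each held 2 counts (0.165 and 0.188 CPM). HAND2, a factor of posterior limb mesenchyme, measured 1.64, 1.00 and 1.03 CPM against 0.509, 0.446 and 0.735 CPM (log2 fold change −1.07 ± 0.48, adjusted p = 1), and its groups did not overlap either. Log2 fold changes were −0.02 for SHH, the posterior signal of the limb bud, and −0.11 for TBX3.

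Among the genes that the study names for tail length, TBXT, LIN28A and LIN28B had too few counts to be tested. GDF11, which ends trunk growth in the embryo, measured 3.76, 3.97 and 1.94 CPM in mid-tail skin and 4.41, 5.60 and 6.25 CPM at the tip. Each GDF11 tip was above each mid-tail, with a log2 fold change of 0.76 ± 0.41 (adjusted p = 1). BMP2 and PDGFD had log2 fold changes of −0.01 and −0.37, and the sign for BMP2 turned with the processing.

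The genes with the smallest p that were lower at the tip included the chemokine gene CCL26 and the RNA-binding protein gene IGF2BP2. CCL26 (chr24:34486612-34491172), an attractant of eosinophils, measured 3.29, 4.67 and 6.18 CPM in mid-tail skin and 0.467, 0.585 and 0.331 CPM at the tip. Its levels did not overlap between positions, in ram sums or in single libraries, and the base mean was higher still at 10.5 ± 3.96 CPM (SD, n = 3). The log2 fold change was −3.29 ± 0.57 (edgeR adjusted p = 0.210, DESeq2 adjusted p = 1.98e-06).

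IGF2BP2 (chr1:202185501-202349278), which binds mRNAs of growth genes, measured 8.78, 14.5 and 21.5 CPM in mid-tail skin and 3.61, 3.57 and 5.29 CPM at the tip. The mid-tail rams differed among themselves more than the tip rams did, yet no tip reached a mid-tail, and the base lay at 26.5, 25.9 and 25.1 CPM. Its log2 fold change was −1.81 ± 0.34 (edgeR adjusted p = 0.363, DESeq2 adjusted p = 0.000473). The protein-coding gene LOC114117992 (chr14:50167230-50183563) had the smallest p of all, with a log2 fold change of −2.34 ± 0.38 (edgeR adjusted p = 0.210, DESeq2 adjusted p = 1.76e-05). Its levels were 1.97, 8.16 and 2.06 CPM against 0.467, 1.06 and 0.625 CPM, so ram 871868 was the highest at both positions.

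**Figure D3:**
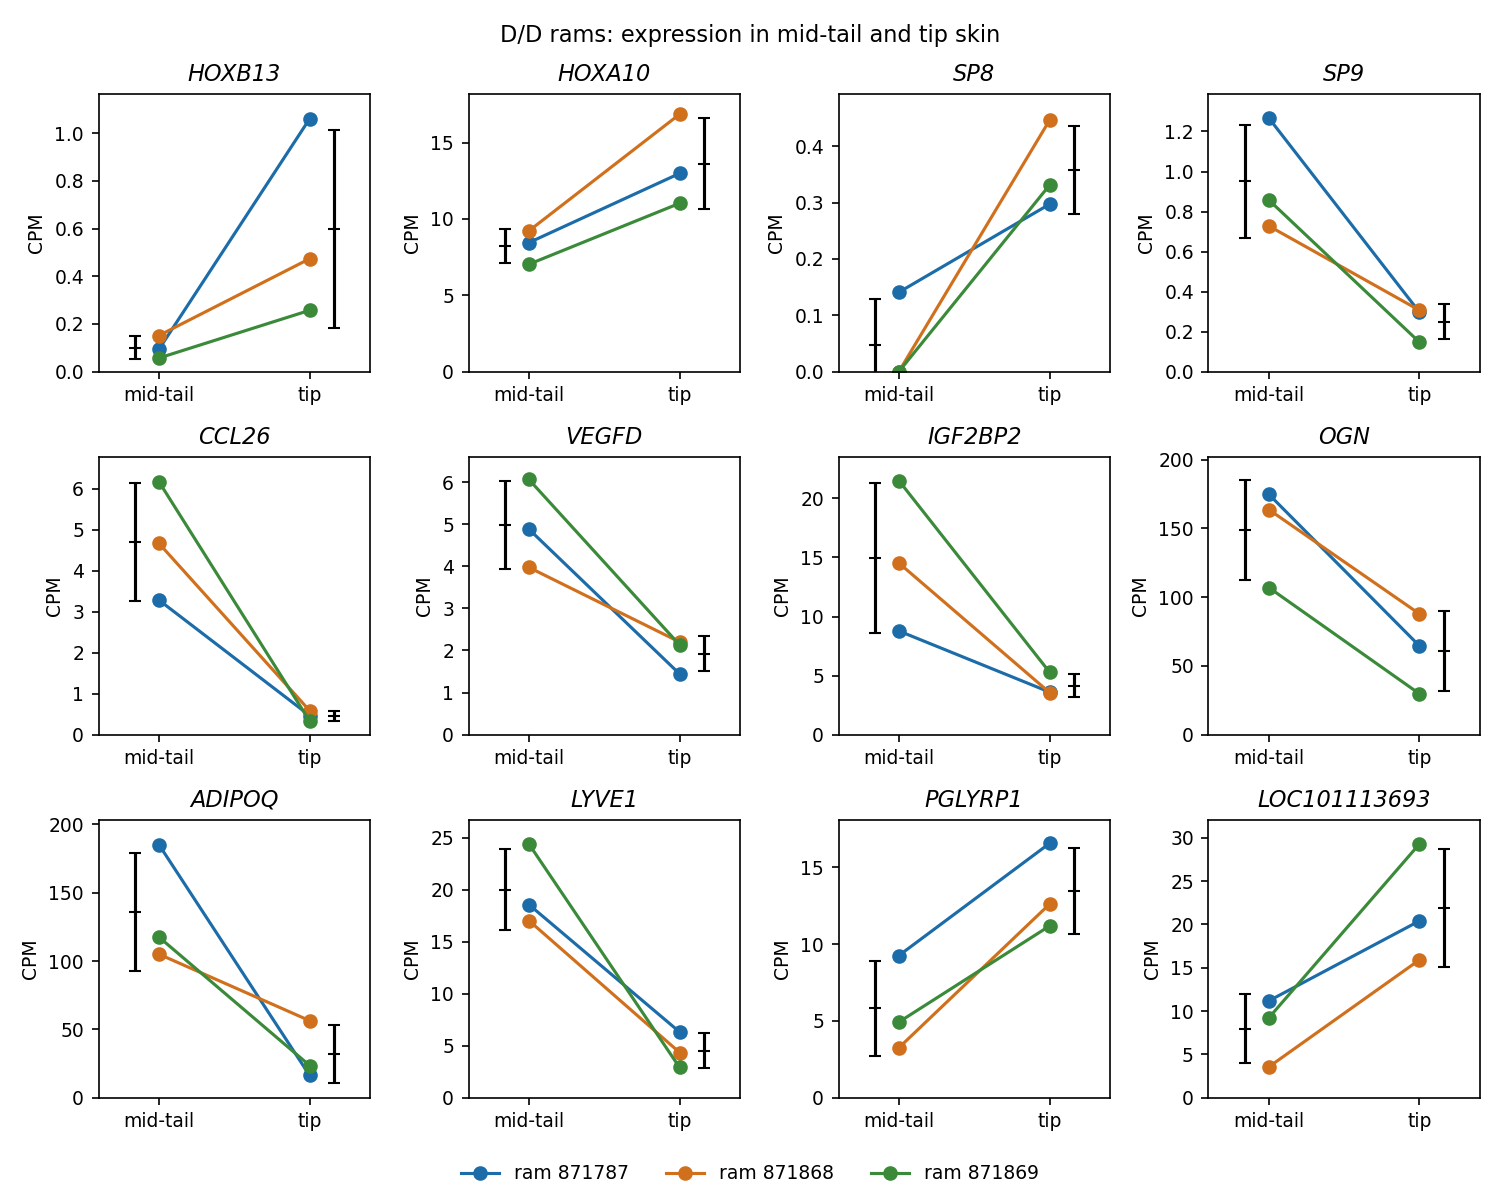
Normalised level in CPM (linear y axis from 0) of 12 genes in mid-tail and tip skin (x axis) of D/D rams, 1 line per ram, with black bars for the mean ± SD over 3 rams (the lower bar of SP8 in mid-tail skin is cut at 0). The lines of HOXB13, HOXA10, SP8, PGLYRP1 and LOC101113693 go up to the tip and those of SP9, CCL26, VEGFD, IGF2BP2, OGN, ADIPOQ and LYVE1 go down, in all 3 rams.

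The remaining DESeq2 calls were also mostly lower at the tip. OGN (chr2:28863931-28883196), which encodes the small leucine-rich proteoglycan osteoglycin of the dermal matrix, measured 175, 164 and 107 CPM in mid-tail skin and 64.5, 87.8 and 29.7 CPM at the tip (log2 fold change −1.35 ± 0.31, DESeq2 adjusted p = 0.0287). ALDH1A3 (chr18:5014822-5059603), an enzyme of retinoic acid synthesis, had the smallest difference of the 12, with 53.7, 70.1 and 69.8 CPM against 31.1, 39.1 and 49.8 CPM (−0.71 ± 0.15, DESeq2 adjusted p = 0.0337). Neither gene overlapped between the positions. VEGFD, a growth factor of lymphatic vessels, was at 4.88, 3.97 and 6.06 CPM in mid-tail skin and 1.44, 2.20 and 2.13 CPM at the tip (−1.33 ± 0.31, DESeq2 adjusted p = 0.0346). For CDH4, the cell adhesion molecule R-cadherin, the levels were 3.94, 3.46 and 3.32 CPM against 2.63, 1.11 and 0.772 CPM (−1.38 ± 0.33, DESeq2 adjusted p = 0.0397). STK32A, a kinase gene, the protein-coding LOC101110634 and the long non-coding LOC121819976 were also among the lower calls, with log2 fold changes of −2.45, −1.11 and −2.45 in edgeR.

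The 1 gene that DESeq2 called higher at the tip was the protein-coding LOC101113693 (chr14:44642726-44644920). It measured 11.2, 3.55 and 9.21 CPM in mid-tail skin and 20.4, 15.9 and 29.3 CPM at the tip, with a log2 fold change of 1.57 ± 0.32 (edgeR adjusted p = 0.549, DESeq2 adjusted p = 0.00582). Single libraries of the positions did not overlap for this gene.

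For genes with a symbol and a mean of at least 1 CPM, those with the smallest p were taken in each direction. Of the 9 lower genes described here, with absolute log2 fold changes of 1.06 to 3.29 and edgeR adjusted p of 0.210 to 0.650, 9 had no overlap between the positions. Of the 10 higher genes (1.06 to 2.57, adjusted p 0.829 to 1), 4 had none. Over all genes the shares without overlap were 5.09% lower and 5.31% higher. The named genes were picked on the same ram sums, so their lack of overlap is in large part set by that choice. CA4, a membrane carbonic anhydrase of capillaries, measured 5.91, 1.85 and 2.46 CPM in mid-tail skin and 10.9, 11.2 and 6.47 CPM at the tip (log2 fold change 1.72 ± 0.53, adjusted p = 0.907). PGLYRP1, a peptidoglycan recognition protein of innate defence, was at 9.25, 3.25 and 4.92 CPM against 16.6, 12.6 and 11.2 CPM (1.32 ± 0.44, adjusted p = 1). Both had every tip above every mid-tail. IL17REL, a receptor-like gene of the interleukin 17 family, rested more on 1 ram, with 4.04, 7.89 and 3.95 CPM against 9.80, 25.2 and 6.65 CPM (1.25 ± 0.33, adjusted p = 0.829). The epidermal cytokine IL36B measured 2.25, 0.121 and 0.172 CPM in mid-tail skin and 11.8, 1.62 and 0.478 CPM at the tip, so that ram 871787 was far above the others at both positions. RSPO4, a Wnt agonist of nail and appendage development, was at 0.939, 1.03 and 1.09 CPM against 1.91, 1.92 and 2.68 CPM (1.06 ± 0.46, adjusted p = 1).

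Fat cell genes were lower at the tip. Of 17 adipocyte markers tested, 7 were lower and 0 higher at an unadjusted p under 0.05, beside 2.88% and 0.802% of all genes. In all 3 rams 11 were lower (64.7%, beside 15.8% of all genes) and 0 higher (16.3% of all genes). The median log2 fold change was −0.63. ADIPOQ (chr1:201189257-201202270), the adipocyte hormone adiponectin, measured 185, 105 and 118 CPM in mid-tail skin and 16.3, 56.3 and 23.5 CPM at the tip. Its ram sums did not overlap, with a log2 fold change of −2.26 ± 0.74 (adjusted p = 1). The paired libraries of ram 871868 varied widely, however, at 17.7 and 156 CPM in mid-tail skin and 14.2 and 101 CPM at the tip, and the single libraries of the positions overlapped.

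PLIN1 and LEP behaved in a similar way. PLIN1, the coat protein of the fat droplet, measured 22.6, 11 and 11.8 CPM against 3.69, 6.49 and 3.23 CPM (log2 fold change −1.70 ± 0.67, adjusted p = 1). LEP, the adipocyte hormone leptin, was at 1.46, 0.455 and 0.515 CPM in mid-tail skin and 0, 0.167 and 0.0368 CPM at the tip (−3.40 ± 1.03, adjusted p = 0.907), where the count of 0 in ram 871787 allows up to 0.12 CPM. Both genes had every tip below every mid-tail. The other markers at an unadjusted p under 0.05 were PCK1, CIDEC, TRARG1 and LIPE, with log2 fold changes from −2.07 to −1.05. The 3 markers with a positive log2 fold change were FABP4, PNPLA2 and CIDEA. FABP4, a fatty acid carrier that endothelium also expresses, was at 481, 835 and 385 CPM against 485, 608 and 775 CPM (log2 fold change 0.17). CIDEA and PNPLA2 had log2 fold changes of 0.03 and 0.04. The summed level of the 17 markers was 1621, 1491 and 1162 CPM in mid-tail skin and 1062, 1280 and 1161 CPM at the tip, so the sum, which FABP4 weighs on, was nearly equal in ram 871869.

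The 16 fatty acid genes that the study names had a median log2 fold change of −0.68 in D/D rams. All 16 values were negative in the edgeR fit of the ram sums, but that of CYP2A6 was −0.01 and turned positive in 8 other settings, and those of ACSM2B and PM20D1 did so in 1 each. Of them, 6 were lower at an unadjusted p under 0.05 and 11 in all 3 rams (68.8%, beside 15.8% of all genes). The study chose these genes on the same libraries, so their direction is not independent evidence. ALOX15, a lipoxygenase, measured 0.282, 1.15 and 1.03 CPM in mid-tail skin and 0.127, 0.0279 and 0.0735 CPM at the tip (log2 fold change −3.59 ± 0.92, adjusted p = 0.829). PCK1, the enzyme that makes glycerol backbone precursors in fat, was at 2.02, 0.273 and 0.801 CPM against 0.212, 0.139 and 0.257 CPM (−2.07 ± 0.70, adjusted p = 1). A list of fatty acid synthesis and elongation genes, which shares ACSM1 and ACSM5 with the study's genes, showed no such tilt. Of its 27 genes, 0 passed an unadjusted p under 0.05 in either direction, and the median was −0.06. Of 14 sebaceous gland markers, 1 was lower and 0 higher, with a median of −0.20. Lower in all 3 rams were 2 of them (14.3%, near the 15.8% of all genes), but 9 with only the libraries numbered 1.

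**Figure D4:**
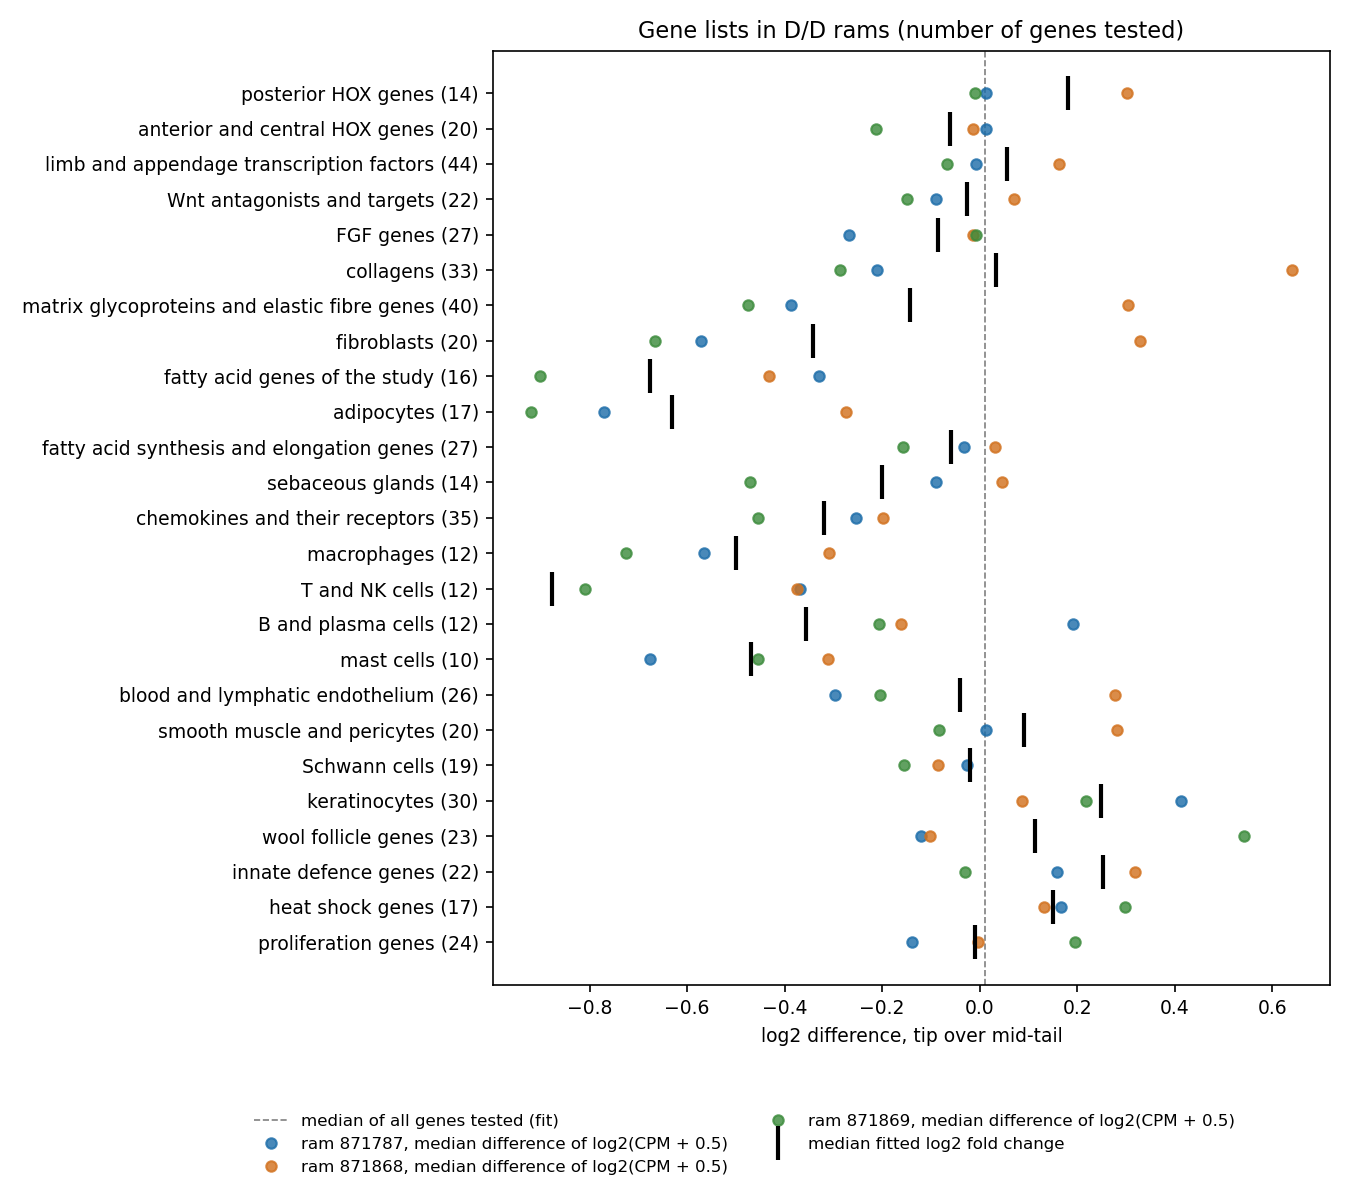
Median log2 fold change of tip against mid-tail skin in D/D rams (x axis) for 25 gene lists (y axis), with the fitted median as a bar and the median in each of the 3 rams as a point; the dashed line is the median of all genes tested. Adipocytes, fatty acid genes of the study, macrophages, T and NK cells and mast cells lie to the left and keratinocytes to the right in all 3 rams, whereas the collagen medians of the rams lie on both sides of 0.

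Immune cell markers were lower at the tip for several cell types. Of 12 macrophage markers, 4 were lower at an unadjusted p under 0.05 and 0 higher, beside 2.88% and 0.802% of all genes. In all 3 rams 11 were lower (91.7%, beside 15.8% of all genes), and the median was −0.50. CD68, MARCO and ADGRE1 did not pass the filter on low counts. CSF1R (chr5:59152070-59183558), the receptor that macrophages need to survive, measured 27.8, 24.3 and 32.1 CPM in mid-tail skin and 16.5, 18.2 and 15.6 CPM at the tip (log2 fold change −0.73 ± 0.22, adjusted p = 0.911). LYVE1 (chr15:41819090-41833662), the hyaluronan receptor of lymphatic endothelium and of a class of tissue macrophages, measured 18.6, 17.0 and 24.4 CPM against 6.32, 4.35 and 2.90 CPM (−2.14 ± 0.52, adjusted p = 0.674). No tip reached a mid-tail in either gene. The summed level of the macrophage markers was 408, 343.9 and 416.4 CPM in mid-tail skin and 349.2, 276.3 and 201.2 CPM at the tip.

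T and NK cell markers had a median log2 fold change of −0.88 in the fit, and ram medians of −0.37, −0.38 and −0.81 on the scale of log2(CPM + 0.5), where the added 0.5 shrinks changes of low genes. Of 12 tested, 3 were lower at an unadjusted p under 0.05 (beside 2.88% of all genes) and 9 in all 3 rams (75%, beside 15.8%). CD2, a surface receptor of these cells, measured 2.63, 2.85 and 3.60 CPM in mid-tail skin and 1.53, 2.15 and 1.07 CPM at the tip (−0.94 ± 0.29, adjusted p = 0.907). Of 10 mast cell markers, 4 were lower and 0 higher at an unadjusted p under 0.05 (median −0.47), beside 2.88% and 0.802% of all genes. Among the lower ones were CPA3, the mast cell carboxypeptidase (−1.40 ± 0.47), and HDC, the histamine-forming enzyme (−1.36 ± 0.49). AOC1, which breaks down histamine, measured 1.41, 3.46 and 8.87 CPM against 0.0849, 0.0557 and 2.43 CPM (−2.94 ± 0.90, adjusted p = 0.907), where the tip of ram 871869 lay above the mid-tail of ram 871787. KIT, the stem cell factor receptor that mast cells share with melanocytes, had a log2 fold change of −0.20. B and plasma cell markers did not stand apart, with 0 of 12 at an unadjusted p under 0.05.

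Of 35 chemokine and chemokine receptor genes, 14 were lower in all 3 rams (40%, beside 15.8% of all genes) and 0 higher. With only the libraries numbered 1 these were 14 and 3. The median was −0.32. At an unadjusted p under 0.05, 6 were lower and 0 higher, beside 2.88% and 0.802% of all genes. Besides CCL26 the 6 were CCL21, CCL24, CX3CR1, CXCL9 and CCL5. CCL21 (chr2:36861993-36863196), which lymphatic vessels make to draw in dendritic and T cells, measured 31.5, 36.8 and 34.5 CPM in mid-tail skin and 16.5, 21.5 and 10.3 CPM at the tip. Its log2 fold change was −1.15 ± 0.28 (adjusted p = 0.657), and the positions did not overlap. CCL24, a second attractant of eosinophils, had a log2 fold change of −1.35 ± 0.51, and CX3CR1, the fractalkine receptor of monocytes, one of −0.98 ± 0.32.

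Markers of vessels were split. Of 26 endothelial markers, 5 were lower at an unadjusted p under 0.05 and 0 higher, but the median was −0.04. Lower in all 3 rams were 9 of them (34.6%, beside 15.8% of all genes) and higher 0. With only the libraries numbered 1, however, it was 1 lower and 2 higher. Genes of lymphatic vessels, singled out after their values were seen, were among the lower ones: besides LYVE1 and CCL21, RELN measured 10.2, 8.89 and 8.52 CPM in mid-tail skin and 5.09, 4.24 and 2.46 CPM at the tip (−1.24 ± 0.33, adjusted p = 0.829), and MMRN1 had a log2 fold change of −1.20 ± 0.48. The list also holds the lymphatic genes PROX1, FLT4 and PDPN, which were not singled out. A fall of lymphatic genes as a class is therefore not shown. The general endothelial genes PECAM1 and VWF had log2 fold changes of 0.07 and 0.27. The 19 markers of Schwann cells, which wrap the nerves of the skin, had a median of −0.02, and their summed level was 375.9, 351.8 and 350.1 CPM in mid-tail skin and 396.9, 348.8 and 316.2 CPM at the tip.

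The dermal matrix did not lean one way as a whole. Of 20 fibroblast markers, 4 were lower at an unadjusted p under 0.05 and 0 higher (beside 2.88% and 0.802% of all genes), with a median of −0.34. Their summed level was 15910, 9697 and 13740 CPM in mid-tail skin and 7437, 14540 and 6992 CPM at the tip, so that it was lower at the tip in rams 871787 and 871869 and higher in ram 871868. The collagens had the same split, with ram medians of −0.21, 0.64 and −0.29 and 0 of 33 genes at an unadjusted p under 0.05. SCARA5 (chr2:102260374-102393787), a ferritin receptor of dermal fibroblasts, was lower in each ram nonetheless, at 33.5, 36.0 and 35.7 CPM against 17.1, 19.5 and 14.8 CPM (−1.04 ± 0.27, adjusted p = 0.829). SFRP4, a secreted Wnt antagonist, measured 47.7, 22.5 and 18.9 CPM in mid-tail skin and 5.77, 7.52 and 5.15 CPM at the tip (−2.15 ± 0.63, adjusted p = 0.889). CHRDL1, a secreted BMP antagonist, was at 40.0 ± 3.39 CPM against 18.5 ± 5.83 CPM (SD, n = 3), with a log2 fold change of −1.11 ± 0.29. Of 40 matrix glycoprotein and elastic fibre genes, 5 were lower and 1 higher. The higher one was TNC, tenascin C of growing and remodelled dermis (0.66 ± 0.30, adjusted p = 1).

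Epidermal genes leaned the other way. Of 30 keratinocyte markers, 15 were higher at the tip in all 3 rams (50%, beside 16.3% of all genes) and 0 lower (15.8% of all genes). At an unadjusted p under 0.05, 2 were higher (beside 0.802% of all genes), and the median was 0.25. Their summed level was 38640, 35870 and 28670 CPM in mid-tail skin and 61000, 38910 and 33880 CPM at the tip, higher in each ram and most of all in ram 871787. DSP, the desmosome protein desmoplakin, measured 3370, 3021 and 2441 CPM against 4263, 3223 and 4983 CPM (0.50 ± 0.23, adjusted p = 1), higher at the tip in each ram, although the tip of ram 871868 lay below the mid-tail of ram 871787. KRT2, a keratin of the upper epidermis, was at 590, 261 and 61.3 CPM in mid-tail skin and 1210, 1000 and 196 CPM at the tip (1.51 ± 0.76, adjusted p = 1), with rams far apart from each other. The alarmin S100A8 of stressed epidermis and neutrophils was at 83.0, 14.4 and 4.80 CPM against 349, 37.2 and 9.89 CPM, higher at the tip in each ram and highest in ram 871787 at both positions. The neutrophil genes MPO, ELANE and MMP8 were below the filter. Of 17 heat shock genes, 8 were higher in all 3 rams (47.1%, beside 16.3% of all genes), with a median of 0.15. This stress list lay in the same direction as the epidermal genes, but 0 of its genes had an unadjusted p under 0.05. The immediate early genes (median −0.06) and the glucocorticoid target genes (median −0.14), also stress lists, did not lie in that direction. The part of stress in the results was not tested.

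The lists that leaned one way depended on the libraries in part. With only the libraries numbered 1, keratinocyte markers higher in all 3 rams went from 15 to 7 and macrophage markers lower in all 3 rams from 11 to 7, whereas adipocyte markers lower in all 3 rams went from 11 to 10. Of all genes, 13.7% were lower in all 3 rams with these libraries and 15.2% higher. Larger moves in that setting were those of the sebaceous gland markers lower in all 3 rams, from 2 to 9, the endothelial markers lower in all 3 rams, from 9 to 1, and the proliferation genes higher in all 3 rams, from 4 to 10. Scaled to library totals without TMM, 20.8% of all genes were lower in all 3 rams and 9.68% higher, and the counts were 13 for keratinocytes, 11 for macrophages and 11 for adipocytes. These settings were chosen after seeing the data.

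The design also asks whether the tip differs from mid-tail skin in the same way in A/A rams. Mid-tail was set by each ram's own tail length, and D/D tails are longer, so the positions are not matched in distance. For this reason the paper holds that mid-tail and tip skin are not directly comparable across genotypes. The differences below carry the same limit. The test of the difference, D/D minus A/A, gave 0 genes at an adjusted p under 0.05 in edgeR (0%), with a smallest adjusted p of 1, and 412 genes at an unadjusted p under 0.05 (2.12%). DESeq2 gave 1 gene, LOC114117992, with a difference of −2.56 ± 0.51 on the log2 scale (SE, adjusted p = 0.00777). For this gene the A/A change in edgeR was 0.21 ± 0.30 (n = 4 rams). In A/A rams 0 genes passed an adjusted p under 0.05 in edgeR and 787 an unadjusted one, 481 lower and 306 higher. The rams of the genotypes are different animals, and nothing in this comparison is shared but the fit.

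Of the 9 lower genes, 8 had a negative log2 fold change in A/A rams too, and 3 had an unadjusted p under 0.05 for the difference. CCL26 and IGF2BP2 had A/A values of −1.95 ± 0.44 and −1.54 ± 0.30, with differences of −1.34 ± 0.72 and −0.27 ± 0.45 (adjusted p = 1 for both). The SP9 change was −2.05 ± 0.34 in A/A rams, against −1.87 ± 0.43 in D/D rams (difference 0.19 ± 0.58, adjusted p = 1). CCL21 had an A/A value of 0.18 ± 0.23, and its difference was −1.33 ± 0.36 (adjusted p = 1). ADAM28, a membrane protease gene, had an A/A value of 0.10 ± 0.26 beside −1.39 ± 0.31 in D/D rams (difference −1.49 ± 0.40, adjusted p = 1).

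Of the 10 higher genes, 6 had the same sign in A/A rams and 4 an unadjusted p under 0.05 for the difference. CA4 had an A/A value of −0.74 ± 0.44 (difference 2.46 ± 0.69, adjusted p = 1) and IL17REL one of −0.48 ± 0.27 (difference 1.72 ± 0.43, adjusted p = 1). These genes were chosen by their D/D values, so larger values in D/D than in A/A rams are in part set by that choice. The adipocyte markers had a median of −0.42 in A/A rams beside −0.63 in D/D, the fatty acid genes of the study −0.56 beside −0.68, and the macrophage markers −0.59 beside −0.50.

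**Figure D5:**
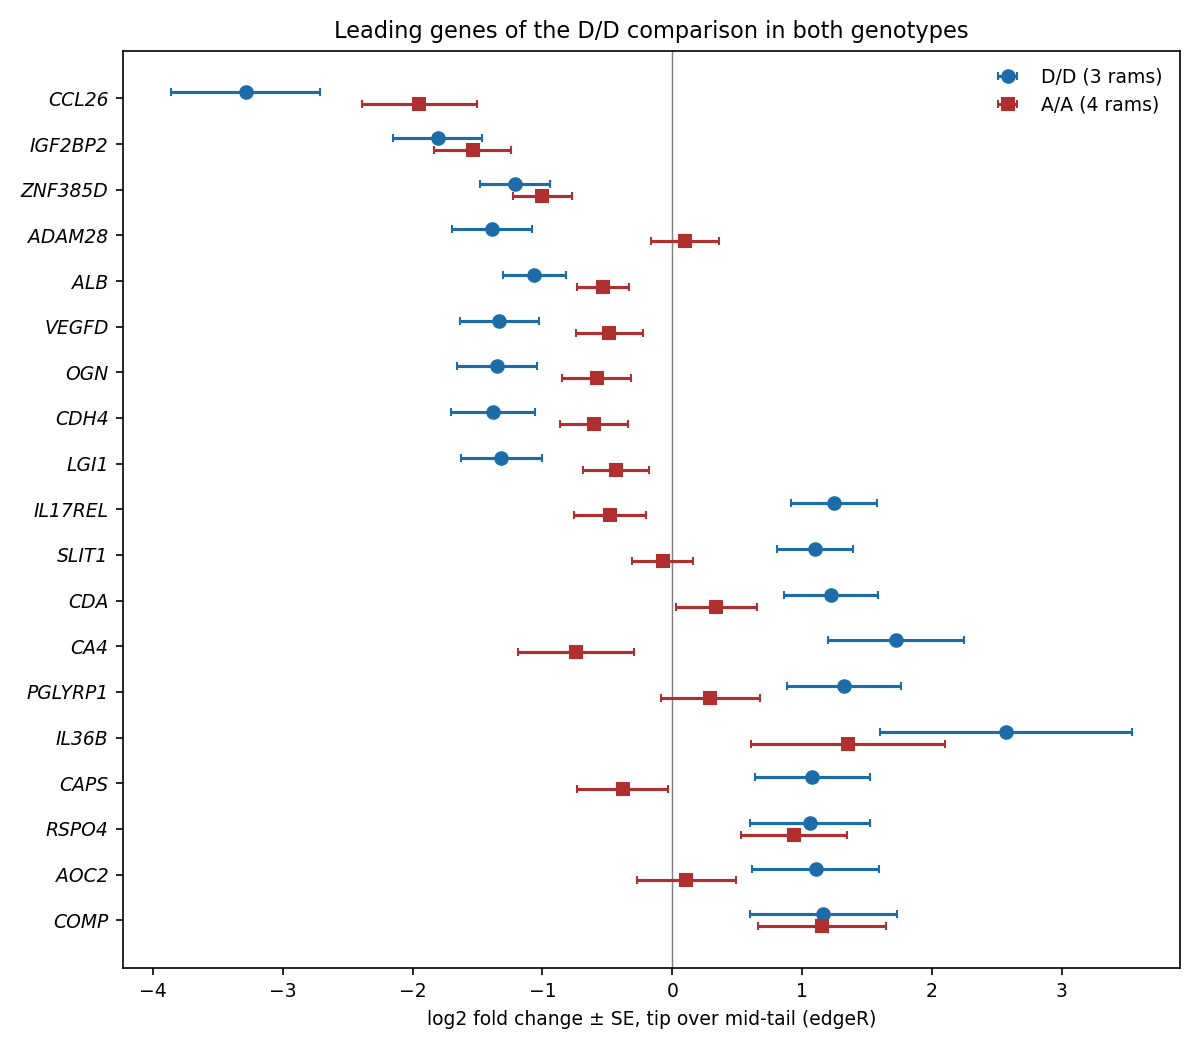
Log2 fold change of tip against mid-tail skin (x axis, error bars are the SE of the edgeR fit) in D/D rams (n = 3) and A/A rams (n = 4) for 9 lower and 10 higher genes with the smallest p in D/D rams (y axis). Of the lower genes 8 lie below 0 in A/A rams too, and of the higher genes 6 lie above 0.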

How the data were processed

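The authors extracted RNA from skin, prepared CorALL libraries and checked the paired-end reads with FastQC 0.11.9. Alignment was to ARS-UI_Ramb_v3.0 (ContextMap 2, BWA), and the raw counts that the authors deposited were made per RefSeq gene and strand by featureCounts, whose version is not given in the sources used here. The 14 tip columns are kept under the unit estimated count, only because their names were misread as positions, but the authors made and deposited them as whole counts like the rest. Rounding changed nothing. The file holds 31182 genes, 4594 of them without a count, and 0 value columns went unused. Coordinates are from the RefSeq table of the same build.

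Counts were summed per ram and position. The 21 sums entered 1 fit in edgeR 4.0.16 (R 4.3.3) with TMM, its filter on low counts, the quasi-likelihood test, a ram block and genotype by position, with Benjamini-Hochberg adjustment. The pairing comes from the animal. Deviations of the tip and mid-tail sums of a D/D ram from the mean of their position correlated at 0.601, 0.364 and 0.473. Between different rams the values were −0.426 to −0.0766. Taking off the mean of few rams itself pushes these below 0, so they are no independent comparison. Library pairs differed by more than counting noise, so each library counted. The test was checked on simulated counts. Intervals and floors cover counting error only.

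Genes are named by rule. These are the study's own RNA-seq genes, up to 15 called genes in each direction or else the 10 with the smallest p (a symbol other than a LOC number, a mean of 1 CPM or more, 3 rams in the same direction), and up to 4 members of a list by p. Genes that DESeq2 called, and members shown because they differ from their list, were picked after their values were seen. The members and lists were chosen with earlier results of these data known. Alternatives were DESeq2 1.42.0, limma 3.58.1 (voom), other scaling, filters, samples and blocks, and single libraries. Sequences were not used here. Some genes picked by this rule are not reported here, which leaves 9 leading lower genes.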

Additional observations from a re-analysis of the deposited data

Results flagged for a closer look

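In the D/D tip libraries, 1 library of ram 871868 had an ADIPOQ level of 101 CPM of the library total, while the other 5 ranged from 4.61 to 38.0 CPM. The same library had a LEP level of 0.288 CPM, against 0 to 0.0597 CPM in the others. These were 2 of 22 sets of libraries checked. The rule sets a library apart by chance in about 1 in 20 sets only where values are independent and normally spread. Libraries of the same ram are not independent, so that rate need not hold here. Both flags fall on the same library and on adipocyte genes, so they are not separate events. Between the genotypes, the tip against mid-tail difference of LOC114117992 in DESeq2 was −2.56 on the log2 scale, the lower value being that of D/D rams.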

How the results depend on the processing

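Depth limits HOXB13, SP8 and LEP most, which rest on few counts, and 3 rams limit every test. Genes at an adjusted p under 0.05 numbered 0, but 12 with DESeq2 on ram sums, 10 with the 9 D/D sums only, 4 with single libraries in edgeR, 6 with the library number added as a replicate block to the ram block and 26 with single libraries in DESeq2. At the thresholds of the study these settings gave 5, 1, 2, 3 and 5. For the difference between genotypes, DESeq2 gave 1 on ram sums and 3 on single libraries. Leaving out each D/D ram gave 0 for all of these. CCL26 and IGF2BP2 were called in each of the 5 settings with calls. SFRP4 (log2 fold change −2.16, edgeR adjusted p = 0.0354) and S100A8 (1.55, edgeR adjusted p = 0.0138) were called with the 9 D/D sums and in no other setting. HOXB13 ranged from 1.71 to 4.05 over 17 settings (1.71 to 2.99 with a ram left out), with no adjusted p under 0.197.

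The counts at an unadjusted p, an addition made after seeing the data, moved more. The 560 lower genes became 889 with 9 D/D sums, 873 with the 6 sums of both positions, 147 with no ram block, 194 with libraries numbered 2, and 288 to 480 with a ram left out (288 without ram 871869). The 156 higher genes became 438, 519, 42 and 47 in the first 4 of these, 113 to 149 with a ram left out, 95 with library totals, 243 with no filter, 277 with single libraries, 287 with the replicate block and 242 with single libraries in DESeq2. The share that was lower was 78.2%, and 87.9% with library totals, 68.4% with no filter, 67% with 9 sums and 62.7% with 6 sums. The ram block is the pairing by animal. The numbers of the libraries of a ram pair nothing else, and no cause was tested.

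For genes named by the study, by rank or by a DESeq2 call, HOXB13 apart, 968 values kept direction and side of the threshold. Another 38 passed it in addition and 26 turned sign. That 0 lost it was set in advance, since no gene passed in the main fit. Genes named only as members of a list were not followed here. CYP2A6 turned to 0.02 (no filter), 0.057 (no ram block), 0.074 (single libraries), 0.078 (replicate block), 0.048 (single libraries, DESeq2) and 0.103 (libraries 2), with −0.283 to 0.223 when a ram was left out. SHH turned to 0 (voom) and, in the order of the CYP2A6 settings without the ram block, to 0.016, 0.063, 0.073, 0.047 and 0.281, with −0.236 to 0.219 when a ram was left out. BMP2 turned to 0.02 (no filter) and 0.043 (libraries 1), and ACSM2B to 0.012 (libraries 1). HOXC10 turned to −0.018 (library totals) and −0.014 (libraries 2), and HOXC11 to −0.223 (libraries 2). With a ram left out, BMP2 ranged from −0.152 to 0.151, FBN2 from −0.473 to 0.628, HOXA13 from −0.135 to 0.345, HOXC10 from 0 to 0.085 and PM20D1 from −0.77 to 0.017.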

Other observations

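Genes of sensory and sympathetic neurons did not lean one way as a list, with 2 of 20 lower and 1 higher at an unadjusted p under 0.05 and a median log2 fold change of 0.01. TAC1, the precursor of substance P, measured 2.21, 2.18 and 1.66 CPM in mid-tail skin and 0.976, 1.17 and 0.772 CPM at the tip of rams 871787, 871868 and 871869, every tip below every mid-tail. Levels of STMN2, which regulates microtubules in axons, were 20.7, 11.1 and 28.6 CPM against 11.1, 10.4 and 14.3 CPM. NPY, the transmitter neuropeptide Y, was at 1.27, 0.121 and 0.172 CPM against 3.39, 2.65 and 0.0735 CPM, so it was higher at the tip in 2 rams and lower in ram 871869.

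Among BMP and TGF-beta genes, 3 of 37 were lower and 2 higher at an unadjusted p under 0.05. The higher genes were GDF10, at 2.53, 2.52 and 2.52 CPM in mid-tail skin and 3.69, 3.87 and 4.23 CPM at the tip, and ID1, a target of BMP signalling (log2 fold change 0.42). BMP3 was lower (log2 fold change −0.96). Of 23 dermal papilla genes 7 were higher in all 3 rams and 4 lower (7 and 0 with only the libraries numbered 1). These are 30.4% and 17.4%, beside 16.3% and 15.8% of all genes, so the lower share is near that of all genes. SCUBE3, a secreted growth factor partner, was at 28.3, 22 and 31.1 CPM against 32.5, 39.1 and 43.6 CPM. Cholesterol synthesis genes were higher in all 3 rams for 7 of 19 (36.8%) and lower for 1 (5.26%), with 0 at an unadjusted p under 0.05. Proliferation genes had a median of −0.01, with 4 of 24 higher in all 3 rams (16.7%, near the share of all genes), but 10 with only the libraries numbered 1. MKI67, a marker of dividing cells, was at 92.7, 91.1 and 77.7 CPM against 85, 93 and 168 CPM. The summed level of the wool follicle genes was 22260, 22370 and 21640 CPM in mid-tail skin and 20210, 20890 and 38350 CPM at the tip, so both MKI67 and this sum were highest at the tip of ram 871869. No adjusted p of these genes was under 0.05 in edgeR or DESeq2.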
